A study of Mus musculus with 63 samples.

Results

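The account concerns a single mature miRNA, mmu-miR-375-3p (miR-375-3p), in small RNA sequencing of cells sorted from obstructed and reversed mouse kidneys. It is 1 of 2110 miRNA loci in the deposited table and was taken by its name. It was proposed because it rose with obstruction in these same libraries, so its changes from sham to obstruction are described here without a test. Male C57BL/6 mice aged 8 to 12 weeks had a sham operation, unilateral ureteric obstruction for 2 days (UUO-2) or 7 days (UUO-7), or obstruction for 7 days that was then reversed for 14 days (R-UUO). From the cortex of each kidney 4 populations were sorted, namely proximal tubule cells (PTs; CD45-CD31-, binding the lectin LTL), endothelial cells (ECs; CD45-CD31+), macrophages (Macs; CD45+F4/80hi) and PDGFR-β+ cells (CD45-CD31-), the last a gate for pericytes and fibroblasts. There were 63 libraries from 16 mice, 4 per cell type and condition, except for PDGFR-β+ cells at UUO-7, where the authors left out an outlying library and n = 3. The mice that were sequenced had been picked, within each condition, for an injury marker level close to their group mean, so the spread between them may be narrower than in the whole cohort.

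miRNAs are short RNAs that guide Argonaute proteins to mRNAs, mainly by pairing through the seed at their 5′ end. miR-375 is best known from pancreatic islets, where it restrains insulin release and is needed for a normal mass of endocrine cells, and it is also found in secretory and mucosal epithelia. Its usual companions in epithelia are the miR-200 family, which represses the ZEB transcription factors and so maintains an epithelial state, and the cluster that encodes miR-183, miR-96 and miR-182. Proximal tubule cells are epithelial, whereas the other sorted populations are not.

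In GRCm38, the build of the deposited table, the miR-375-3p locus lies at chr1:74900661-74900682. It falls inside the Mir375 gene (chr1:74900658-74900721, minus strand in the GENCODE annotation), between the protein coding genes Cryba2 and Cfap65, which are 7514 and 1349 bases from it. No protein coding gene overlaps the locus. The other arm, miR-375-5p, had 3 counts in 1 library and 0 in the rest, against 48683 counts for miR-375-3p over all libraries, so only the 3p arm is described. The mature sequences of 16 of the 17 miRNAs looked up were found in the RefSeq table for GRCm38.p6. The sequence not found was that of miR-375-3p, so its own seed is not shown. Those of the miR-200 family and the miR-183 cluster are given 5′ to 3′, with the seed (bases 2 to 8) in capitals, grouped by shared seed. miR-203-3p and miR-205-5p, also compared below, are not printed. miR-9-5p is added because it varied most like miR-375-3p outside the epithelial companions.
miR-200b-3p: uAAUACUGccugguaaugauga
miR-200c-3p: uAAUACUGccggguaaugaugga
miR-429-3p: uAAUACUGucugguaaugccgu
miR-200a-3p: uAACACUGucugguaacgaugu
miR-141-3p: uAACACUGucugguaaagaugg
miR-183-5p: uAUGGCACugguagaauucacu
miR-96-5p: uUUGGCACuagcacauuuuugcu
miR-182-5p: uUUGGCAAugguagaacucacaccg
miR-9-5p: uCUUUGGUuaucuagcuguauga
The first 3 share one seed and the next 2 another, whereas the 3 miRNAs of the miR-183 cluster and miR-9-5p each had a seed of their own among those shown.

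miR-375-3p was counted in every library, with 80 to 7397 counts, and ranked between 44 and 233 among the loci. Libraries held 616565 to 10819385 counts in all and PT libraries included the shallowest, with totals of 616565 to 5093294. In PTs depth differed by condition, with totals of 622689 to 987306 in sham and 1665115 to 5093294 at UUO-7. At the lowest count, 80 in PT sham replicate 4, the level of 102 CPM of the library total (CPM, counts scaled to a fixed total per library) had a 95% Wilson interval of 82.3 to 127, which covers counting error only. Levels below are CPM after scaling with TMM factors over all libraries unless stated otherwise. These factors differed between cell types (0.517 to 1.53 in PTs, 0.471 to 0.769 in ECs, 1.37 to 2.01 in Macs and 0.622 to 1.09 in PDGFR-β+ cells), so levels in different cell types depend more on the scaling than levels within one. The markers of ECs and Macs were higher in every library of their own sort than in any other library, as was miR-143-3p in PDGFR-β+ cells, but miR-145a-5p and miR-214-3p of PDGFR-β+ cells overlapped with other sorts and miR-215-5p of PTs was at 0 in at least 1 PT library. PT R-UUO replicate 1 stood apart, with 3 PT markers summing to 8330 CPM of its library total against a median of 57700 in PT R-UUO, and its miR-192-5p was only just above the highest value in another sort (8060 against 7270). In sorted bulk RNA, fewer cells of a type and less RNA per cell cannot be told apart.

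In PTs, miR-375-3p was low in sham kidneys and higher at each time of obstruction. The sham libraries had 80.3, 106, 73.2 and 75.0 CPM, and the UUO-2 libraries 170, 158, 246 and 213. The UUO-7 libraries reached 1430, 963, 1660 and 1430 CPM, and the R-UUO libraries stood at 642, 686, 405 and 850. Each condition's range was thus separate from that of every other condition, with R-UUO between UUO-2 and UUO-7. The mean was 83.7 ± 15.4 for sham libraries, 197 ± 40.3 after 2 days, 1371 ± 293 after 7 days and 646 ± 184 following reversal (SD, n = 4 each). Against sham, the log2 fold change was 1.19 (SE 0.223) at UUO-2 and 3.94 (SE 0.242) at UUO-7, and it was 2.91 (SE 0.233) for R-UUO, with the median over all 330 loci fitted at 0.00 for UUO-7. From UUO-2 to UUO-7 the log2 difference was 2.75 (SE 0.227). It ranked 1 among the 330 loci, but the miRNA was chosen for a rise with obstruction, so the rank is no support for it. The log2 difference of R-UUO from UUO-7 was -1.02 (SE 0.214). By way of background, 14.2% of 671 loci in PTs had all UUO-2 libraries above all sham libraries, 20.0% had all UUO-7 libraries and 12.1% all R-UUO libraries above them. All UUO-7 libraries lay above all UUO-2 libraries for 8.05% of loci, and all R-UUO libraries below all UUO-7 libraries for 4.47%. The share with all R-UUO libraries above all UUO-2 libraries was not computed, so that separation has no background here. The rank of miR-375-3p among the loci went from 118 to 139 in sham to 44 to 54 at UUO-7 and 57 to 81 in R-UUO.

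**Figure D1:**
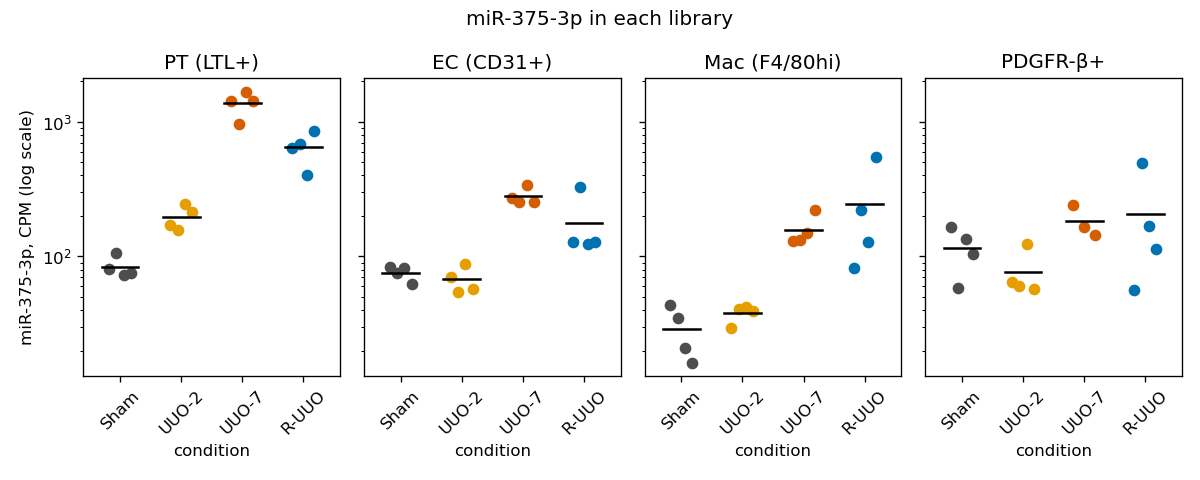
miR-375-3p level in each of the 63 libraries, as CPM after TMM scaling on a log axis, by condition within each sorted cell type; each point is a library and each line the mean of its group. In PTs the 4 conditions do not overlap, UUO-7 libraries of ECs and Macs lie above their sham and UUO-2 libraries, and those of PDGFR-β+ cells overlap with sham on this scale.

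In ECs the miRNA did not move at UUO-2 beyond the spread and was higher at UUO-7. Sham libraries had 83.4, 75.9, 81.4 and 62.1 CPM and UUO-2 libraries 70.8, 54.2, 88.1 and 57.5. At UUO-7 the values were 270, 255, 337 and 255, all above sham and UUO-2. In R-UUO they were 128, 328, 123 and 128, also all above sham, but with replicate 2 far from the other 3. The log2 fold change against sham was -0.01 (SE 0.242) at UUO-2 and 1.99 (SE 0.247) at UUO-7. For R-UUO it was 1.29 (SE 0.242), which became 0.92 when the replicates numbered 2 were left out of every condition. Complete separation above sham was seen for 6.41% of 671 loci at UUO-7 and for 7.90% in R-UUO, and above UUO-2 for 3.58% at UUO-7.

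In Macs the sham level was the lowest of all groups. Sham libraries had 43.8, 35.0, 21.1 and 16.2 CPM and UUO-2 libraries 29.2, 40.5, 42.1 and 39.4, so that they overlapped. UUO-7 libraries had 129, 131, 149 and 220 CPM, all above both. R-UUO libraries were all above sham as well but spread from 82.5 through 128 and 221 to 547, the last being replicate 5. Replicate 5 had the lowest level of each Mac marker among Mac libraries and the smallest total, at 1106651 counts. The epithelial miRNAs compared below summed to 2651 CPM in it, against 1491 to 1701 in the other R-UUO Macs. The part of this in its miR-375-3p value was not tested. The log2 fold change against sham was 0.56 (SE 0.452) at UUO-2 and 2.56 (SE 0.470) at UUO-7, and it was 3.14 (SE 0.480) for R-UUO, which became 2.21 without replicate 5. At UUO-7 17.9% of 671 loci, and in R-UUO 13.3%, separated upward from sham in Macs, and 16.2% separated upward from UUO-2 at UUO-7. The median log2 fold change over the 457 loci fitted was 0.22 at UUO-7. From UUO-7 to R-UUO the difference was 0.59 (SE 0.440) with overlapping libraries, and its range was -0.08 to 0.84 when replicates of 1 number at a time were left out.

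In PDGFR-β+ cells sham and obstructed libraries were not separate after TMM scaling. Sham libraries had 164, 58.1, 135 and 104 CPM, UUO-2 libraries 64.7, 60.5, 124 and 57.3, and UUO-7 libraries 241, 165 and 145. R-UUO ranged from 56.7 in replicate 1 to 495 in replicate 2, with 167 and 114 in the other replicates, so this group alone spanned most of the levels seen outside PTs. The epithelial miRNAs compared below summed to 3127 CPM in replicate 2, against 1449 to 1901 in the others, and their part was not tested. The log2 fold change against sham was 0.64 (SE 0.518) at UUO-7, while the median over the 477 loci fitted was 0.50. Scaled by library size only, both values were larger, at 1.12 for miR-375-3p and 1.02 for the median locus, and the UUO-7 libraries (156 to 213 CPM) all lay above the sham libraries (40.0 to 108). The share of loci so separated was not computed on that scale. After TMM scaling 210 of 671 loci had all UUO-7 libraries above all sham libraries, without miR-375-3p among them. UUO-7 libraries did lie above all UUO-2 libraries (log2 difference 1.14, SE 0.519), as they did for 26.7% of 671 loci. The R-UUO difference from sham was 0.78 (SE 0.485) and became -0.27 when the replicates numbered 2 were left out, so its sign rested on those libraries.

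Ordered by mean over the 16 groups, the level ran from 29.0 ± 12.7 in sham Macs and 37.8 ± 5.81 in UUO-2 Macs up to 646 ± 184 in R-UUO PTs and 1371 ± 293 in UUO-7 PTs (SD, n = 4). Neighbouring groups in that order overlapped except at 3 steps. These were from UUO-2 Macs to UUO-2 ECs (67.7 ± 15.4), a pair for which 28.0% of 671 loci were wholly lower in Macs and which reversed with library size only (72.5 ± 13.4 in Macs and 49.0 ± 11.6 in ECs, with overlap), from UUO-7 ECs (279 ± 38.9) to R-UUO PTs, and from R-UUO PTs to UUO-7 PTs. The 12 groups from UUO-2 ECs to UUO-7 ECs formed a chain of overlapping ranges. A step concerns neighbours only. R-UUO PTs, from 405 CPM, overlapped with R-UUO Macs (up to 547) and R-UUO PDGFR-β+ cells (up to 495). The share of loci separated from UUO-7 ECs to R-UUO PTs was not computed. In sham kidneys PTs (83.7 ± 15.4) overlapped with ECs (75.7 ± 9.58) and PDGFR-β+ cells (115 ± 45.4). PTs had the highest level of the 4 sorts in 1 of 4 sham mice, or in 3 of 4 when levels were scaled by library size only. After obstruction, with or without reversal, PTs were highest in 4 of 4 mice of each condition under either scaling. Macs were lowest in 4 of 4 sham mice, 4 of 4 UUO-2 mice and 3 of 4 UUO-7 mice, but with library size only in 2 of 4 sham mice and 0 of 4 in the other conditions, so the place of Macs in the order depended on the scaling.

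Whether the cell types differ after reversal was tested, because the miRNA was proposed for its rise with obstruction and not for that comparison. Earlier results of these data were known when it was chosen, so the test may not be wholly independent of the choice. In R-UUO kidneys PTs held more miR-375-3p than each of the other sorts, and differences among the others did not pass the threshold. By edgeR's quasi-likelihood test over 671 loci, with an adjusted p under 0.05 and a fold above 1.5 required, the log2 difference between PTs and ECs was 1.87 (SE 0.418, adjusted p = 0.000161). Between PTs and PDGFR-β+ cells it was 1.64 (SE 0.415, edgeR adjusted p = 0.000749), and between PTs and Macs 1.41 (SE 0.413, edgeR adjusted p = 0.00352). The level was higher in PTs than in the other 3 sorts in 4 of 4 mice. Across mice, all PT libraries lay above all EC libraries, as they did for 132 of 671 loci. They overlapped with those of Macs and of PDGFR-β+ cells. Without PT R-UUO replicate 1, the library with few PT markers, the differences were 1.78, 1.57 and 1.40 and all passed, with edgeR adjusted p of 0.000489, 0.00176 and 0.00531. Many loci differ between sorted cells, and by the same rule 29.4%, 23.4% and 25.2% of loci were called higher in PTs than in ECs, PDGFR-β+ cells and Macs respectively.

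The PT and Mac difference was the least firm of the 3. Scaled by library size only it was 0.84 (edgeR adjusted p = 0.0968), with the median locus at -0.57 in place of 0.00, and fitted on the R-UUO libraries alone it was 1.39 (edgeR adjusted p = 0.0619), whereas the other alternatives kept the call, with adjusted p up to 0.0286 when single libraries, or all replicates of 1 number, were left out. Among the other sorts, the log2 difference was 0.46 (SE 0.406) for Macs over ECs, 0.23 (SE 0.405) for PDGFR-β+ cells over ECs and 0.23 (SE 0.405) for Macs over PDGFR-β+ cells, with edgeR adjusted p of 0.362, 0.735 and 0.661. For these 3 pairs 52.2%, 30.4% and 52.0% of loci were called in either direction. They do not show equal levels, since without PDGFR-β+ R-UUO replicate 2 (495 CPM) the Mac level was higher by 1.11 (edgeR adjusted p = 0.0163). Averaged over the 4 conditions, Macs were instead lower than ECs (log2 difference -0.65, edgeR adjusted p = 0.00411) and than PDGFR-β+ cells (-0.75, edgeR adjusted p = 0.00114). Over all alternatives the adjusted p ran from 0.0003 to 0.692 for Macs and ECs and from 0.00114 to 0.969 for Macs and PDGFR-β+ cells.

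**Figure D2:**
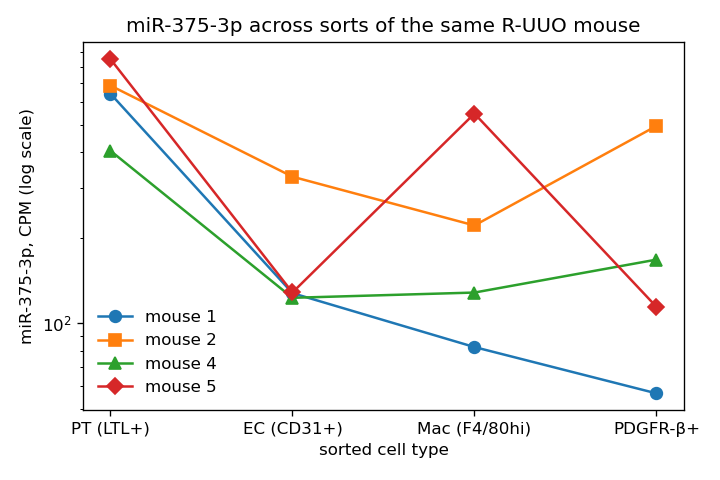
miR-375-3p level (CPM after TMM scaling, log axis) in the 4 sorted populations of each R-UUO mouse, with a line joining the libraries of 1 mouse. PTs are highest in 4 of 4 mice, while the order of the other sorts differs between mice. Mouse 5 is high in Macs (547) and mouse 2 in ECs (328) and PDGFR-β+ cells (495).

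Within each library, miR-375-3p was also set against miR-192-5p, a miRNA that marks PTs. Such a ratio does not depend on the scaling. In PTs there were 0.58 to 0.87 miR-375-3p counts per 1000 miR-192-5p counts in sham, 2.60 to 3.94 at UUO-2, 18.5 to 52.8 at UUO-7 and 6.82 to 41.3 in R-UUO. The highest of the last group was PT R-UUO replicate 1, the library with few PT markers. miR-192-5p itself went from 118265 ± 13967 CPM in sham PTs to 41248 ± 8474 at UUO-7 (SD, n = 4), so both terms of the ratio moved.

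The ratio was higher in each of the other sorts than in PTs of the same mouse, in every mouse. That direction largely follows from the reference, a PT marker. The sham mean of miR-192-5p was 118265 CPM in PTs, against 3043 in ECs, 3889 in Macs and 2861 in PDGFR-β+ cells. In ECs the ratio was 20.3 to 32.8 in sham and 89.6 to 192.5 at UUO-7, in Macs 3.19 to 12.4 and 89.0 to 124, and in PDGFR-β+ cells 22.7 to 82.0 and 91.5 to 152. Relative to the PTs of the same mouse it was 32.5- to 39.8-fold higher in sham ECs, 5.42- to 15.1-fold in sham Macs and 26.0- to 99.7-fold in sham PDGFR-β+ cells. At UUO-7 these ratios were 2.61 to 8.94, 2.34 to 4.81 and 2.24 to 4.23. The median summed level of the 3 PT markers, in CPM of the library total, was lower at UUO-7 than in sham in all 4 sorts. It went from 2130 to 1290 in ECs, from 5530 to 2800 in Macs and from 2040 to 1470 in PDGFR-β+ cells. In PTs themselves it went from 174000 to 42900. The part of PT material in the miR-375-3p values of the other sorts was not tested. With miR-194-5p as the reference, the ratio in the PDGFR-β+ cells of R-UUO mouse 1 was 0.954-fold that of its PTs and all others stayed above. Against the sum of the 10 epithelial miRNAs the distances were smaller, with 0.991- to 1.79-fold the PT ratio in PDGFR-β+ cells at UUO-7 and 1.55- to 2.75-fold in Macs. The epithelial sum had a median of 699 CPM of the library total in sham and 1040 at UUO-7 in ECs, 1400 and 1870 in Macs, and 1530 and 2090 in PDGFR-β+ cells. After TMM scaling its mean was 1017 ± 177 and 1608 ± 368 in ECs, 1052 ± 271 and 1030 ± 191 in Macs, and 2083 ± 637 and 2074 ± 688 in PDGFR-β+ cells (SD, n = 4, but 3 for PDGFR-β+ cells at UUO-7). The part of these epithelial miRNAs, and of the cells they come from, in the miR-375-3p values of ECs, Macs and PDGFR-β+ cells was not tested.

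**Figure D3:**
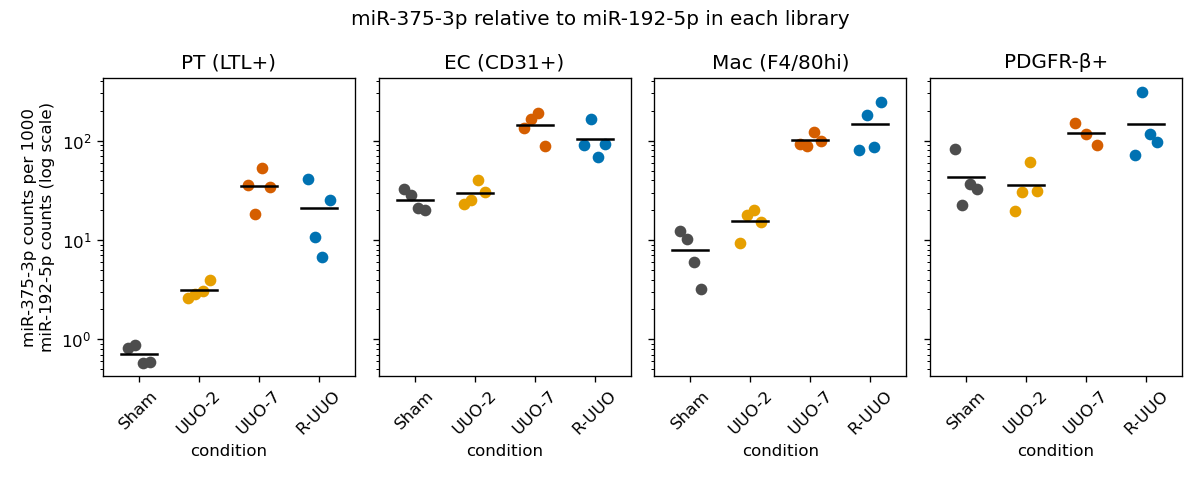
miR-375-3p counts per 1000 miR-192-5p counts in each library (log axis), by condition within each sorted cell type; points are libraries and lines group means. The ratio is lowest in sham PTs (0.58 to 0.87) and lies above the PT values of the same condition in ECs, Macs and PDGFR-β+ cells.

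The miRNAs that accompany miR-375 in other tissues were followed at UUO-7 against sham by the same edgeR test within each cell type. The lists were chosen with earlier results of these data known, so their calls are a description beside the share of all loci. Of the 10 epithelial miRNAs, 5 were called higher and 1 lower in PTs, where 25.5% of 330 loci were called higher and 17.6% lower. Their median log2 fold change was 1.90 against 0.00 over all loci. The 5 include miR-96-5p, which was nearly absent from PT sham libraries. It can have passed the filter only through the conditions where it was high, so its call carries no weight in this count. In ECs 2 were called higher and 0 lower (6.18% and 5.33% of 469 loci), with 0 lower also by DESeq2 and at an unadjusted edgeR p under 0.05. In Macs 3 were called higher and 3 lower (26.3% and 16.8% of 457 loci), and in PDGFR-β+ cells 2 higher and 0 lower (34.0% and 14.3% of 477 loci), where DESeq2 called 2 lower and 0 were lower at an unadjusted edgeR p under 0.05. Outside PTs the medians of the list were 0.29 in ECs, -0.04 in Macs and 0.33 in PDGFR-β+ cells, beside -0.05, 0.22 and 0.50 over all loci.

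miR-182-5p and miR-183-5p, of the miR-183 cluster that serves sensory cells and many epithelia, were called higher in all 4 cell types. In PTs miR-182-5p rose from 452 ± 190 to 9703 ± 3652 CPM (log2 fold change 4.32, SE 0.492) and miR-183-5p from 22.9 ± 14.3 to 620 ± 195 (4.64, SE 0.518; SD, n = 4). In ECs the log2 fold changes were 2.23 and 2.81, in Macs 2.00 and 2.43, and in PDGFR-β+ cells 1.27 and 1.43, all above the value for the median locus. miR-96-5p, from the same cluster, was sparse, with 0 to 1 counts in PT sham libraries and 20 to 166 at UUO-7.

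In PTs the called members of the miR-200 family were those of a single genomic cluster. miR-200c-3p rose from 13.8 ± 9.83 to 120 ± 9.45 CPM (log2 fold change 3.02, SE 0.432) and its cluster partner miR-141-3p by 3.40 (SE 0.529), from 63.2 to 106 CPM in sham to 587 to 1937 at UUO-7. The members of the other cluster did not reach the fold required, with 0.46 for miR-200a-3p, 0.54 for miR-200b-3p and 0.29 for miR-429-3p, the last being -0.06 when scaled by library size only. Each shared seed printed above thus has a called and an uncalled member, a difference that was not itself tested. In Macs miR-200c-3p also rose (1.41, SE 0.384), whereas miR-141-3p fell by 0.87 (SE 0.203) and miR-200a-3p fell by 0.60 (SE 0.226), a call that was lost with library size only (-0.46). miR-203-3p, a miRNA of stratified epithelium, fell by 1.03 (SE 0.197) in PTs and fell by 1.64 (SE 0.292) in Macs.

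**Figure D4:**
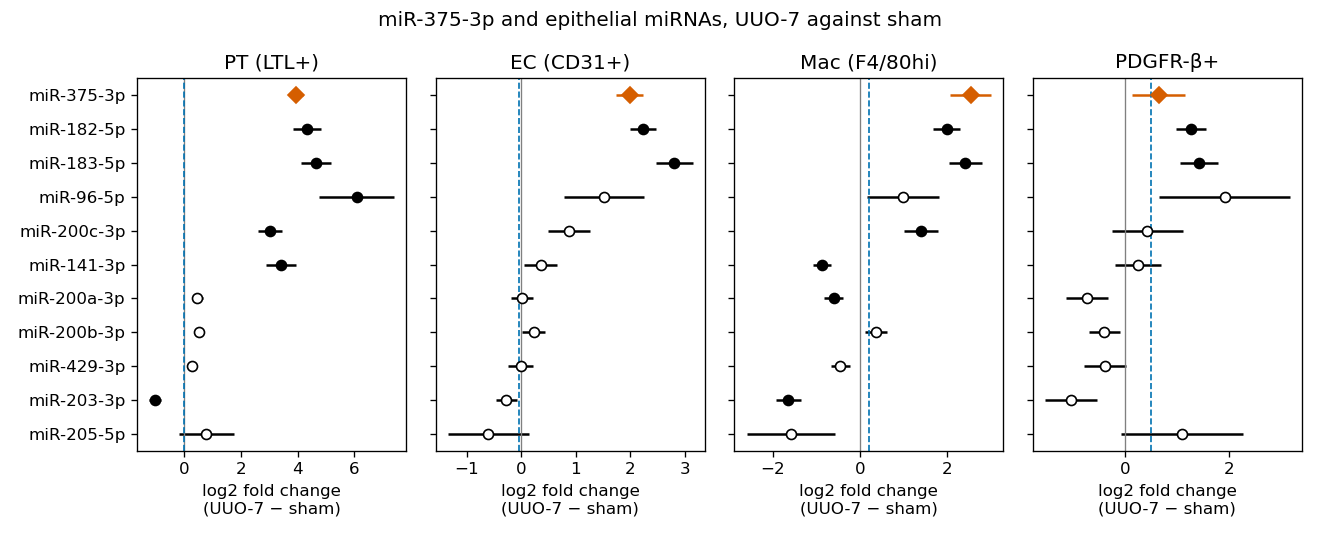
log2 fold change at UUO-7 against sham (horizontal axis; bars, SE) of miR-375-3p (diamond, described without a test) and 10 epithelial miRNAs (circles, filled where called by edgeR) in each cell type; the dashed line is the median over all loci fitted. miR-182-5p and miR-183-5p are filled in all 4 panels and miR-200c-3p and miR-141-3p lie near 3 in PTs, where miR-96-5p had 0 to 1 counts in sham libraries.

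Of the 9 miRNAs of the pancreatic list, which are found with miR-375 in islets or acinar tissue, few were measurable. The loci that passed the filter came from 4 names in ECs, 3 in Macs, 2 in PTs and 2 in PDGFR-β+ cells. In PTs the 3 loci of miR-9-5p were called higher, with log2 fold changes of 3.08 to 3.35, from 2 to 6 counts in sham libraries to 31 to 211 at UUO-7 at the first of them. Those loci have the same mature sequence and can share reads, so they are not separate results. With so few sham counts, the first locus can have passed the filter only through other conditions, so its call was close to fixed. In Macs miR-7a-5p (2.87, SE 0.708) and miR-184-3p (0.88, SE 0.254) were called higher, on 0 to 10 counts of miR-7a-5p in sham libraries. miR-7a-5p, too, can have passed the filter only through other conditions. In ECs 1 locus, miR-184-3p, was called higher, on 5 to 13 counts in sham and 10 to 2175 at UUO-7, and DESeq2 called 0. In PDGFR-β+ cells edgeR called 0 in either direction, with 1 higher at an unadjusted p under 0.05, while DESeq2 called 0 and a likelihood ratio test 1 higher. No member was called lower by edgeR in any sort, with 1 lower at an unadjusted p under 0.05 in ECs.

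The loci whose level varied most like that of miR-375-3p were found by Pearson's r of log2 CPM. Over the 63 libraries, which share mice and differ in depth, they were miR-182-5p (r = 0.87), miR-183-5p (0.86), miR-9-5p (0.81), miR-9b-3p (0.81) and miR-200c-3p (0.72). miR-9-5p and miR-9b-3p lie on opposite strands of the same places and had equal counts in all 63 libraries, so they count as 1 signal whose strand is not resolved. Within cell types, r with miR-182-5p was 0.90 in PTs, 0.81 in ECs, 0.87 in Macs and 0.64 in PDGFR-β+ cells. PTs at UUO-2 held 3217 ± 603 CPM of miR-182-5p (SD, n = 4) beside 197 of miR-375-3p, whereas ECs at UUO-7 held 721 ± 235 beside 279. In PTs of the R-UUO mice, miR-182-5p was 19219 CPM in replicate 1, the library with few PT markers, and 6760, 3323 and 7359 in the others. Their mean was 5814 ± 2178 without that replicate and 9165 ± 6935 with it (SD, n = 3 and 4), beside 9703 ± 3652 at UUO-7, whereas the miR-375-3p mean was 647 without it and 646 with it, beside 1371.

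**Figure D5:**
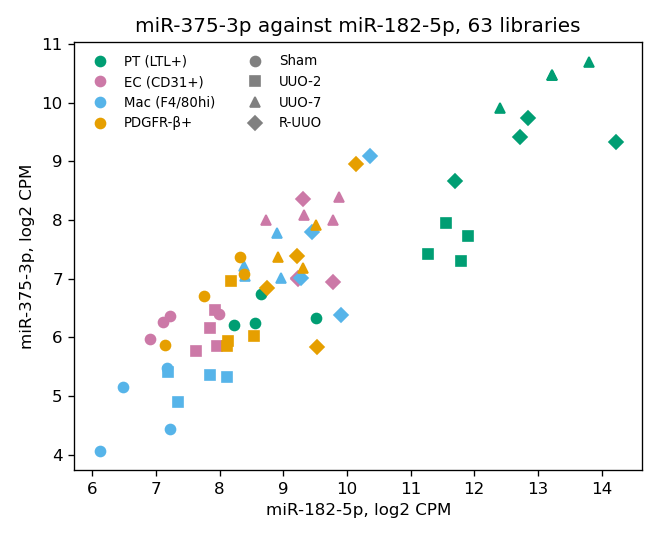
Level of miR-375-3p against miR-182-5p as log2 CPM in the 63 libraries, with cell type by colour and condition by symbol. The levels vary together (r = 0.87 over all libraries, 0.64 to 0.90 within cell types), and PT libraries from injured kidneys lie to the right of the other sorts.

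Over the 16 PT libraries alone the closest loci were let-7i-5p (r = 0.93), miR-181d-5p (0.93) and miR-342-3p (0.91). let-7i-5p, of the let-7 family that restrains growth and pluripotency genes, went from 1998 ± 258 CPM in sham PTs to 8495 ± 2187 at UUO-7 and 6828 ± 2737 in R-UUO (SD, n = 4). These loci were not close to miR-375-3p in every sort, since in Macs r was 0.09 for let-7i-5p and 0.44 for miR-342-3p. With Spearman's rho none of the 3 was among the 3 closest in PTs.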

How the data were processed

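The authors trimmed reads with Trim Galore 0.4.1 and Cutadapt 1.1 and aligned them to GRCm38 with miRBase annotation through ShortStack and Bowtie. They deposited raw counts per mature miRNA locus for 63 libraries. How reads that match several places or either strand were counted is not given in the sources used here. 1 further column, a total, was not used.

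Libraries were grouped by their labels. Loci were filtered with filterByExpr, scaled by TMM and fitted with edgeR 4.0.16 (quasi-likelihood) in R 4.3.3, in 1 fit of all libraries for cell types and 1 fit per cell type for conditions. Calls needed a Benjamini-Hochberg adjusted p under 0.05 over all loci and a fold above 1.5. log2 CPM used a prior count of 2. The fits were tested on simulated data. DESeq2 1.42.0, a likelihood ratio test, other scaling, no filter, blocks and left-out replicates were alternatives. Leaving out single R-UUO libraries, 1 fit of all libraries for conditions and counting identical loci once were added after seeing the data. The named miRNAs were miR-375, the epithelial and pancreatic lists, and the 5 loci closest to it over all libraries and 3 in PTs. The miRNA and the lists were chosen with earlier results of these data known.

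The 4 sorts of 1 mouse share its number within a condition, so the mouse pairs libraries between cell types. Deviations from the group means had a median correlation of 0.0485 within a mouse and -0.0166 between mice. These correlations run over all loci, not miR-375-3p alone. Its level in UUO-2 mouse 3 was the highest of the condition in ECs (88.1 CPM), Macs (42.1), PTs (246) and PDGFR-β+ cells (124). R-UUO mouse 2 was highest in ECs (328) and PDGFR-β+ cells (495) but not in Macs or PTs. Across conditions equal numbers were different mice. Replicate libraries of a group differed by at least 8.96 in chi-square per degree of freedom, so none was a duplicate.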

Additional observations from a re-analysis of the deposited data

Results flagged for a closer look

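In groups of 4 libraries, 2 values of miR-375-3p lay far from the other 3: EC R-UUO replicate 2 at 328 CPM (the others 123 to 128) and PDGFR-β+ UUO-2 replicate 3 at 124 CPM (57.3 to 64.7). For miR-192-5p, Mac sham replicate 4 at 5090 CPM (3425 to 3532) and PDGFR-β+ UUO-2 replicate 1 at 3310 CPM (1819 to 2040) did so. These are 4 of 45 checks, made in each group on the levels of both miRNAs and on their ratio, so the checks are not independent. Chance alone flags about 1 in 20. The mice of both flagged miR-375-3p values also stood high in other sorts. UUO-2 mouse 3 had the highest level of its condition in every sort, and R-UUO mouse 2 also in PDGFR-β+ cells (495 CPM). Between cell types, every UUO-7 library lay above sham in PTs and below sham in Macs for miR-141-3p (log2 fold change 3.40 and -0.87) and for miR-200a-3p (0.46 and -0.60), out of 10 miRNAs examined. Over all 671 loci, 134 lay wholly above sham in PTs and 110 wholly below sham in Macs. The share of loci that did both was not computed, so the opposite movement has no background here. With library size only miR-200a-3p was 0.09 and -0.46, neither called, so its opposite movement depended on the scaling, while miR-141-3p was 2.96 and -0.74, both called. The difference between the cell types was not tested.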

How the results depend on the processing

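Depth limited the sparse miRNAs (miR-96-5p, miR-184-3p, miR-7a-5p) more than miR-375-3p, and n = 4 limited the rest. In R-UUO, PTs over ECs (1.46 to 2.65) and over PDGFR-β+ cells (1.30 to 2.52) kept their calls under every alternative run. The mouse as a block changed no call between cell types (PTs over ECs 1.99, over Macs 1.63), and fitting by replicate number as a block across conditions, where equal numbers are different mice, gave 1.66 for Macs at UUO-7 over UUO-2 and 0 pancreatic loci higher in ECs. Where a change is given below, the cause was not tested.

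With library size only, PTs over Macs was 0.84 and lost its call, Macs over ECs (1.81) and over PDGFR-β+ cells (1.14) gained one, and the changes moved to 3.56 (PTs, UUO-7 over sham), 2.48 (PTs, R-UUO over sham), 1.12 (PDGFR-β+ cells, UUO-7 over sham) and 1.68 (PDGFR-β+ cells, UUO-7 over UUO-2), with 1 pancreatic locus higher in PDGFR-β+ cells. From R-UUO libraries alone, with fewer samples, PTs over Macs was 1.39 and lost its call. Averaged over conditions, Macs over ECs (-0.65) and over PDGFR-β+ cells (-0.75) reversed. PDGFR-β+ cells over ECs, never called, was -0.076 with DESeq2 and -0.077 with its size factors. Both, and leaving out the filter, gave 2 epithelial miRNAs lower in PDGFR-β+ cells. For the pancreatic list in ECs DESeq2 gave 0 higher and the likelihood ratio test 1 lower, and for PDGFR-β+ cells the latter gave 1 higher. With Spearman's rho 0 of the 3 leading loci in PTs were shared.

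Leaving out replicates gave -0.31 to 0.95 for Macs over ECs (lowest without Mac R-UUO replicate 5, highest without EC R-UUO replicate 2), -0.65 to 0.72 for PDGFR-β+ cells over ECs (without PDGFR-β+ and without EC R-UUO replicate 2) and -0.48 to 1.11 for Macs over PDGFR-β+ cells, the last being called without PDGFR-β+ R-UUO replicate 2 and, at 1.07, without all libraries numbered 2. It gave -0.27 to 1.24 for PDGFR-β+ cells and 2.21 to 3.52 for Macs in R-UUO over sham. Counts ranged from 2 to 4 (epithelial, Macs, lower), 5 to 6 (epithelial, PTs, higher, 4 with DESeq2), 0 to 1 (pancreatic, ECs, higher, 0 without replicate 3), 1 to 2 (pancreatic, Macs, higher, 1 without replicate 4), 1 to 2 and 0 to 1 (epithelial, PDGFR-β+ cells, higher and lower) and 0 to 1 (pancreatic, PDGFR-β+ cells, higher).

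Per 1000 counts of the epithelial list in place of miR-192-5p, the log2 change from sham to UUO-7 was 1.24 in ECs, 2.53 in Macs, 2.46 in PTs and 0.74 in PDGFR-β+ cells, and Macs over PTs of the same R-UUO mouse 1.47.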
